A study of Saccharomyces cerevisiae with 11 samples.

Results

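The hexosamine pathway of budding yeast, Saccharomyces cerevisiae, was followed through its 4 enzyme genes GFA1, GNA1, PCM1 and QRI1. A probe set, the group of short DNA probes that reads 1 transcript on the array, was taken as a member where the platform's gene table gave it 1 of these symbols. This found 4 probe sets, 1 per gene, among 9275 that are not controls, and 4 genes among 5656 with a single symbol. All 4 were bright enough to be tested. RNA was measured on 11 Affymetrix YG-S98 arrays, in a study of glucosamine, the amino sugar that feeds this pathway. The fks1 cells, strain 5251 in the labels, are mutant in FKS1, which encodes a catalytic subunit of the wall glucan synthase. They were given 15 mM glucosamine for the 2 h before harvest (1 array) or left untreated (1 array). The wild type is labelled BY4741, a laboratory haploid (mating type a). It had 15 mM glucosamine through the overnight culture and the growth after dilution (3 arrays, called continuous), for 2 h (3 arrays), or not at all (3 arrays). All cultures grew in the rich glucose medium YPD, were diluted 50-fold and were harvested at an OD600 of 1.6 to 1.8. Growth before the 2 h of glucosamine lasted 2 h for fks1 and 2 to 3 h for wild type, a difference that goes with strain. The replicate numbers are not said to mark separate cultures, so each p-value measures a spread that may be technical, and the single fks1 arrays are assumed to vary like the wild-type groups.

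The pathway turns a glycolytic sugar phosphate into UDP-N-acetylglucosamine, the activated sugar from which yeast builds chitin, N-glycans and GPI anchors. GFA1 (YKL104C) encodes the amidotransferase of the committed step, which moves nitrogen from glutamine to fructose-6-phosphate and gives glucosamine-6-phosphate. GNA1 (YFL017C) encodes the acetyltransferase that adds an acetyl group from acetyl-CoA. PCM1 (YEL058W, also AGM1) encodes the mutase that shifts the phosphate of the acetylated sugar, and QRI1 (YDL103C, also UAP1) the pyrophosphorylase that joins it to UTP. Glucosamine taken up from the medium is phosphorylated by hexokinases and enters below the step of GFA1. By the RefSeq gene table of assembly R64 the coding lengths were 717, 159, 557 and 477 codons for GFA1, GNA1, PCM1 and QRI1, and the genes lie on 4 different chromosomes. None of the probe sets is of a kind marked as shared between related genes.

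The arrays had been scaled to a common mean, and their median signals ran from 122.7 to 150.0. Such scaling hides any difference in total RNA, and in RNA from whole cultures a change per cell and a change in the mix of cell states cannot be told apart. FKS1 had 8 probe sets, and the brightest, of a kind marked as shared between related genes, stood for it. That probe set read 21.6 with glucosamine and 39.7 without in fks1 cells, against 5324.3 to 7754.0 in untreated wild type, as labelled. The mating type a genes MFA2 (4655.4 to 7512.3) and STE2 (841.8 to 1732.1) were bright on all 11 arrays. The mating type alpha gene STE3 read 30.9 to 93.8, above the background of 25.5 given below. The summed signal of 5 type a genes was 9699.9 to 17558.8, and that of 3 type alpha genes 161.1 to 221.9. The alpha signals were thus low but not absent. MET17, which BY4741 lacks by its textbook genotype, read 7.7 and 7.6 on the fks1 arrays with and without glucosamine. It read 108.5 to 223.0 in continuous, 265.3 to 985.3 in 2 h and 684.1 to 1248.1 in untreated wild type, which at this gene goes against the label BY4741. URA3, which BY4741 also lacks by that genotype, was too dim on the wild-type arrays to be tested, which does not go against the label. HIS3 and LEU2, the other genes of that genotype, were not called between the strains. The summed signal of HIS3, LEU2 and MET17 was 704.9 and 552.9 in fks1 with and without glucosamine. In continuous wild type it was 901.9 to 1056.7. These sums are well above the MET17 signals of the same arrays, so HIS3 and LEU2 were not both dim there. The missing call between strains does not settle whether the label holds at these genes. Within wild type MET17 was also lower under continuous glucosamine than untreated (log2 -2.81, limma adjusted p = 0.0272), a call that held in 13 of 21 alternatives and was lost without any one untreated array or continuous array 1 or 2. Every wild-type array was above both fks1 arrays at MET17, and in every fks1 value that follows the FKS1 mutation and other strain differences cannot be told apart. A signal of 25.5 marks the background here, since 95% of the values of 19 background controls lay below it, and no member signal was under 290.8.

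GFA1 and PCM1 read higher on both fks1 arrays than on any wild-type array, while GNA1 and QRI1 stayed close to their wild-type signals. How many of all tested probe sets did the same was not counted. Untreated fks1 lay above every untreated wild-type array in 38.5% of tested probe sets. With glucosamine, fks1 lay above every 2 h wild-type array in 33.6%. In the test between strains GFA1 passed in untreated cells but not with glucosamine. PCM1 passed in neither condition, only in a contrast over both that was added after the values were seen. No member passed the test for either glucosamine treatment of wild-type cells. Differences are log2 differences of signal from limma, which fits all 8616 tested probe sets together, with Benjamini-Hochberg adjusted p-values, two-sided, and a threshold of 0.05.

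**Figure D1:**
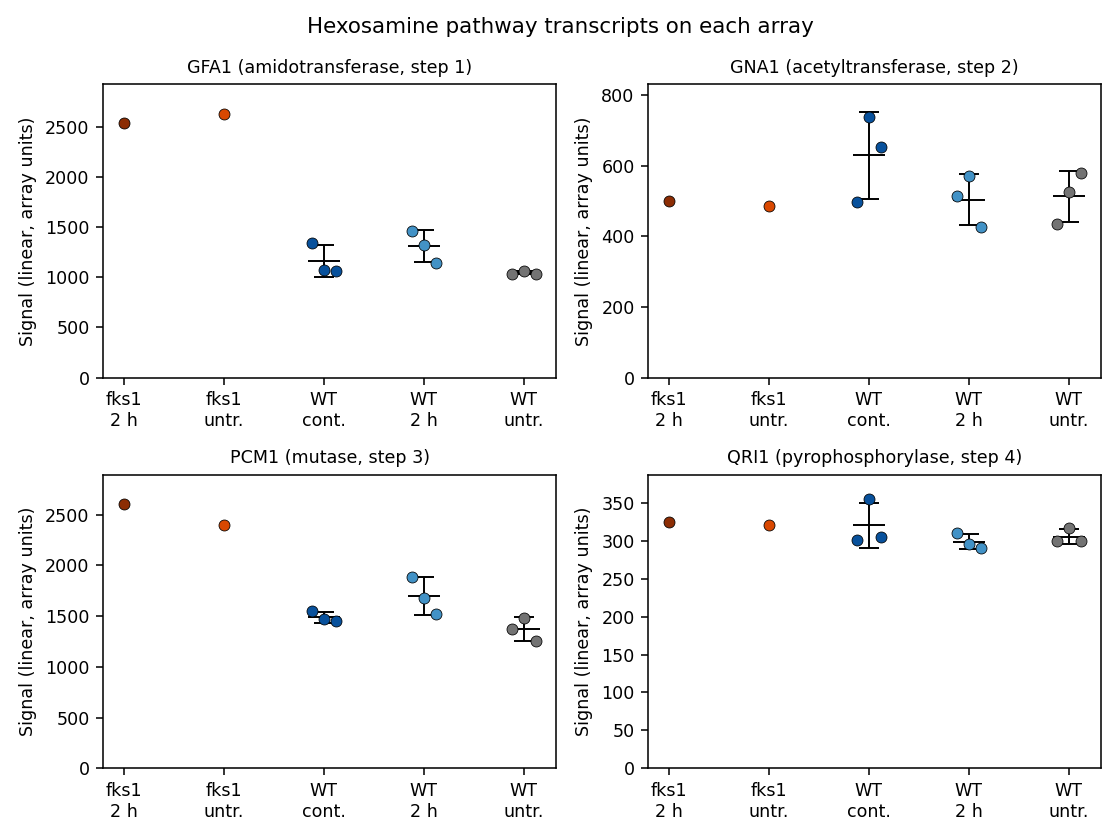
Signal of each member on each of the 11 arrays, in linear array units, with the groups of arrays along the horizontal axis. Points are arrays, and the lines give the mean and SD of the 3 wild-type arrays of a group; fks1 has 1 array per condition. GFA1 at 2538.4 and 2621.7 and PCM1 at 2609.2 and 2399.0 in fks1 cells lay above every wild-type array, and GNA1 and QRI1 of fks1 cells lay within the range of the wild-type arrays.

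GFA1 read 2538.4 in fks1 cells with glucosamine and 2621.7 in untreated fks1 cells. In wild type it read 1342.2, 1076.5 and 1061.3 under continuous glucosamine, 1463.5, 1324.5 and 1139.7 after 2 h, and 1036.7, 1062.5 and 1037.0 untreated. Both fks1 arrays were higher than all 9 wild-type arrays, and the untreated wild-type arrays were the most alike. The wild-type means were 1160 ± 158 continuous, 1309 ± 162 after 2 h and 1045 ± 14.8 untreated (SD, n = 3 each). In order, the levels ran untreated fks1, fks1 with glucosamine, then wild type after 2 h, continuous and untreated. The continuous arrays overlapped both neighbours in that order, and the fks1 values differed by a log2 of -0.05 (95% interval -0.58 to 0.48) with 1 array each.

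In untreated cells GFA1 was 2.51-fold higher in fks1 than in wild type (log2 1.33, SE 0.19, limma adjusted p = 0.0179), where 0.418% of tested probe sets passed as higher. It was the 1 member of 4 that passed there, and it ranked 224 of 8616 by its difference. It was also the 1 member at least 2-fold above each untreated wild-type array, by 2.47 to 2.53-fold, as 2.76% of tested probe sets were. The call was lost without untreated wild-type array 1 (limma adjusted p = 0.0662) or 3 (0.0609), after scaling the arrays to a common median (log2 1.11, adjusted p = 0.0702), and without the variance trend (0.0503). With glucosamine for 2 h, GFA1 measured 1.95-fold in fks1 over wild type and missed the threshold (log2 0.96, SE 0.19, limma adjusted p = 0.0712), and none of the 4 members passed, beside 0.279% of probe sets passing as higher and 0.429% in either direction. No member was at least 2-fold above each wild-type array there, against 2.62% of probe sets. Over both conditions together, a contrast added after these values were seen, GFA1 rose 2.21-fold in fks1 cells (log2 1.14, SE 0.14, limma adjusted p = 0.00260). GFA1 and PCM1, 2 of the 4 members, passed this contrast as higher, against 2.63% of tested probe sets, or 3.64% in either direction.

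In wild type GFA1 was 1.25-fold higher after 2 h of glucosamine than untreated, which did not pass (log2 0.32, SE 0.14, 95% interval 0.0076 to 0.63, limma adjusted p = 0.810). The 3 treated arrays lay above the 3 untreated ones. GFA1 and PCM1, 2 of the 4 members, had groups that did not overlap in this way, as 4.77% of tested probe sets did, and none of the 4 passed, beside 0.0348% of probe sets passing in either direction. By replicate number the ratio was 1.41, 1.25 and 1.099. With the replicate number as a block in a fit of these 6 arrays, the limma adjusted p was 0.347. Continuous glucosamine gave a log2 difference of 0.14 over untreated (SE 0.14, limma adjusted p = 0.732) and of -0.18 against 2 h (SE 0.14, adjusted p = 0.599). In those comparisons 1.44% and 0.058% of all probe sets passed in either direction and none of the 4 members did. No member's continuous arrays all lay above its untreated ones, against 10.6% of tested probe sets. The 2 h response of fks1 minus that of wild type was -0.36 for GFA1 (95% interval -0.98 to 0.25, limma adjusted p = 0.999), an interval too wide to show whether the strains responded alike. No member passed this test of the difference, nor the 2 h comparison within fks1, where 0.0116% of probe sets passed in each.

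GNA1 read 499.2 in fks1 cells with glucosamine and 487.3 in untreated fks1 cells. In wild type it read 497.1, 739.8 and 652.8 under continuous glucosamine, 514.2, 571.2 and 427.1 after 2 h, and 436.4, 526.3 and 578.8 untreated. Both fks1 arrays fell inside the untreated and the 2 h range, and continuous arrays 2 and 3 were the highest of all 11. The means were 630 ± 123 continuous, 504 ± 72.6 after 2 h and 514 ± 72.0 untreated (SD, n = 3 each), and these 3 groups overlapped one another. Untreated fks1 differed from wild type by a log2 of -0.07 (SE 0.27, 95% interval -0.67 to 0.53, limma adjusted p = 0.951). With glucosamine the strain difference was -0.0040 (SE 0.27, 95% interval -0.60 to 0.60, adjusted p = 1.0). GNA1 had the largest difference of the 4 members under continuous glucosamine, at log2 0.28 over untreated (SE 0.19, 95% interval -0.14 to 0.71, limma adjusted p = 0.586), and it did not pass. Its 2 h difference in wild type was -0.03 (SE 0.19, limma adjusted p = 0.991), and the ratios by replicate number were 1.18, 1.09 and 0.738, on both sides of equality.

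PCM1 read 2609.2 in fks1 cells with glucosamine and 2399.0 in untreated fks1 cells. In wild type it read 1549.4, 1468.8 and 1447.9 under continuous glucosamine, 1891.0, 1681.8 and 1522.3 after 2 h, and 1375.4, 1484.5 and 1251.2 untreated. As for GFA1, both fks1 arrays were above all 9 wild-type arrays, and the 2 h arrays were above the untreated ones. The wild-type means were 1489 ± 53.6 continuous, 1698 ± 185 after 2 h and 1370 ± 117 untreated (SD, n = 3 each). The order of levels was fks1 with glucosamine, untreated fks1, then wild type after 2 h, continuous and untreated, and the continuous arrays overlapped both wild-type neighbours.

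In untreated cells PCM1 measured 1.75-fold in fks1 over wild type, short of the threshold (log2 0.81, SE 0.17, 95% interval 0.43 to 1.19, limma adjusted p = 0.0890). With glucosamine the strain difference was 1.54-fold (log2 0.63, SE 0.17, limma adjusted p = 0.179). Over both conditions PCM1 rose 1.65-fold in fks1 (log2 0.72, SE 0.12, limma adjusted p = 0.0131), a call lost after scaling to a common median (log2 0.55, adjusted p = 0.0554). In wild type the 2 h difference was 1.24-fold and did not pass (log2 0.31, SE 0.12, 95% interval 0.035 to 0.58, limma adjusted p = 0.754; 0.332 with the replicate block). Its ratios by replicate number were 1.37, 1.13 and 1.22. Of all tested probe sets, 2.47% were higher at an unadjusted limma p under 0.05 in this comparison, and GFA1 (0.0456) and PCM1 (0.0307) were among them. Continuous glucosamine gave 0.12 over untreated (SE 0.12, limma adjusted p = 0.737) and -0.19 against 2 h (SE 0.12, adjusted p = 0.526). The 2 h response of fks1 minus that of wild type was -0.19 (95% interval -0.73 to 0.35, limma adjusted p = 0.999).

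QRI1 read 324.9 in fks1 cells with glucosamine and 320.8 in untreated fks1 cells. In wild type it read 301.5, 354.9 and 305.5 under continuous glucosamine, 310.2, 295.8 and 290.8 after 2 h, and 299.3, 316.8 and 300.3 untreated. Continuous array 2 was the highest of the 11 and the others lay close together, with the fks1 arrays just above the untreated and 2 h ranges. The wild-type means were 321 ± 29.7 continuous, 299 ± 10.1 after 2 h and 305.5 ± 9.83 untreated (SD, n = 3 each). The strain difference was 0.07 on the log2 scale untreated (SE 0.19, 95% interval -0.36 to 0.50, limma adjusted p = 0.923) and 0.12 with glucosamine (SE 0.19, 95% interval -0.31 to 0.55, adjusted p = 0.852). The untreated value turned to -0.14 after scaling to a common median, which moved the median of all tested probe sets to -0.08, against 0.12 as deposited. In untreated cells, GFA1, PCM1 and QRI1 of fks1 lay above all 3 wild-type arrays, a weak mark that 38.5% of tested probe sets shared, and 33.6% shared it with glucosamine, where the same 3 members did. The difference after 2 h in wild type was -0.03 (SE 0.14, limma adjusted p = 0.987), and continuous glucosamine gave 0.07 over untreated (SE 0.14, adjusted p = 0.901).

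**Figure D2:**
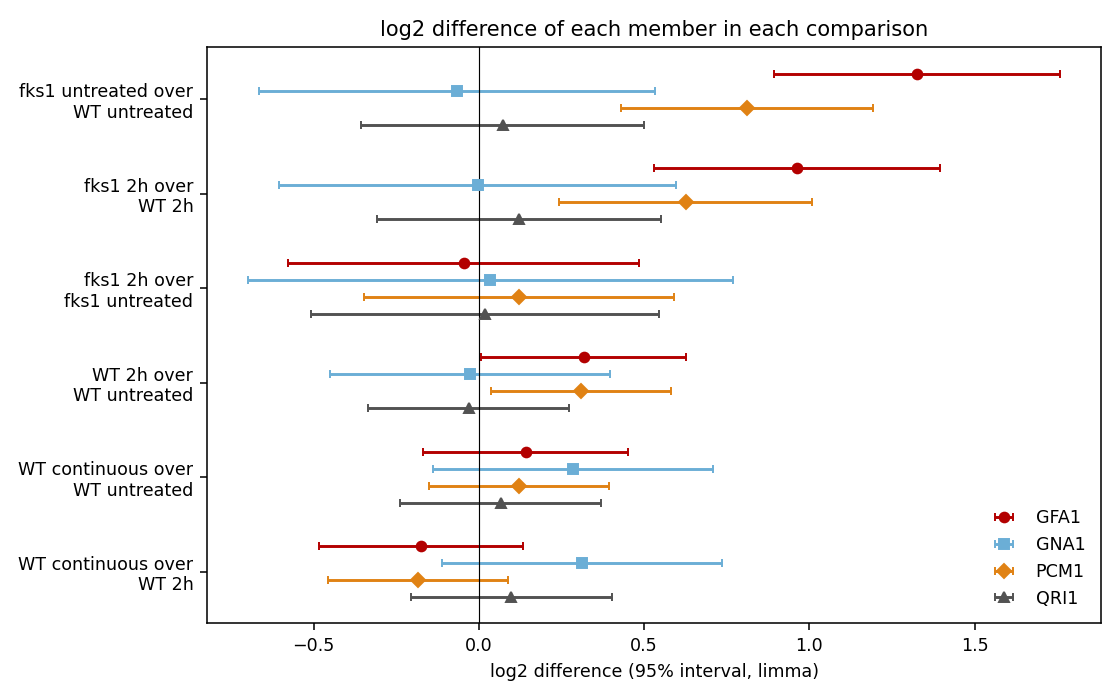
Log2 difference of each member in 6 comparisons, with its 95% interval from limma; the vertical line marks no difference. For fks1 over wild type the intervals of GFA1 lie above 0 (0.89 to 1.76 untreated, 0.53 to 1.40 with glucosamine). Those of PCM1 do so too (0.43 to 1.19 and 0.24 to 1.01). For 2 h over untreated wild type the intervals of GFA1 (0.0076 to 0.63) and PCM1 (0.035 to 0.58) also lie above 0, where neither gene passed. The intervals of GNA1 and QRI1 span 0 in every comparison.

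Of the 4 members, the gene of the last enzyme was also the steadiest. Over the 11 arrays the signal of QRI1 spanned 290.8 to 354.9, a 1.22-fold range with an SD of 0.0811 on the log2 scale, and 0.139% of tested probe sets had a smaller SD. GNA1 spanned 1.73-fold with an SD of 0.236 (23.4% smaller), PCM1 had an SD of 0.332 (47.5% smaller), and GFA1 an SD of 0.496 (75.0% smaller). On the 9 wild-type arrays alone all 4 genes sat in the steadier part of the array. There 0.557% of probe sets were steadier than QRI1, 11.2% than PCM1, 16.3% than GFA1 and 33.0% than GNA1. These shares are over probe sets of every brightness, while all members read above the array medians of 122.7 to 150.0. Steadiness was not compared with probe sets of like signal.

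The signals of GFA1 and PCM1 varied together from array to array. Over the 9 wild-type arrays the log2 signals of GFA1 and PCM1 correlated with Pearson's r = 0.881 (exact permutation p = 5.51e-05, adjusted over 6 pairs p = 0.000331) and Spearman's rho = 0.950 (exact permutation p = 0.000353, adjusted p = 0.00212). Without the 2 arrays farthest from the median of GFA1, r was 0.842. After taking out the group means, so that only differences between arrays of the same group remained, r was 0.733 (exact permutation within groups, p = 0.00926, adjusted p = 0.0556), which missed the threshold. The first p-values treat the 9 arrays as exchangeable, although they form 3 groups and same-numbered untreated and 2 h arrays deviated together, so they overstate the independent evidence. GNA1 and QRI1 had r = 0.706 (exact permutation p = 0.0270, adjusted p = 0.0811) and rho = 0.567 (adjusted p = 0.362 by exact permutation), which did not pass. That relation rested on continuous arrays 2 and 3, the 2 farthest from the median of GNA1, since r was 0.330 without them. The other 4 pairs had r between -0.194 and -0.00711. Genes on the same array share its labelling and scaling.

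**Figure D3:**
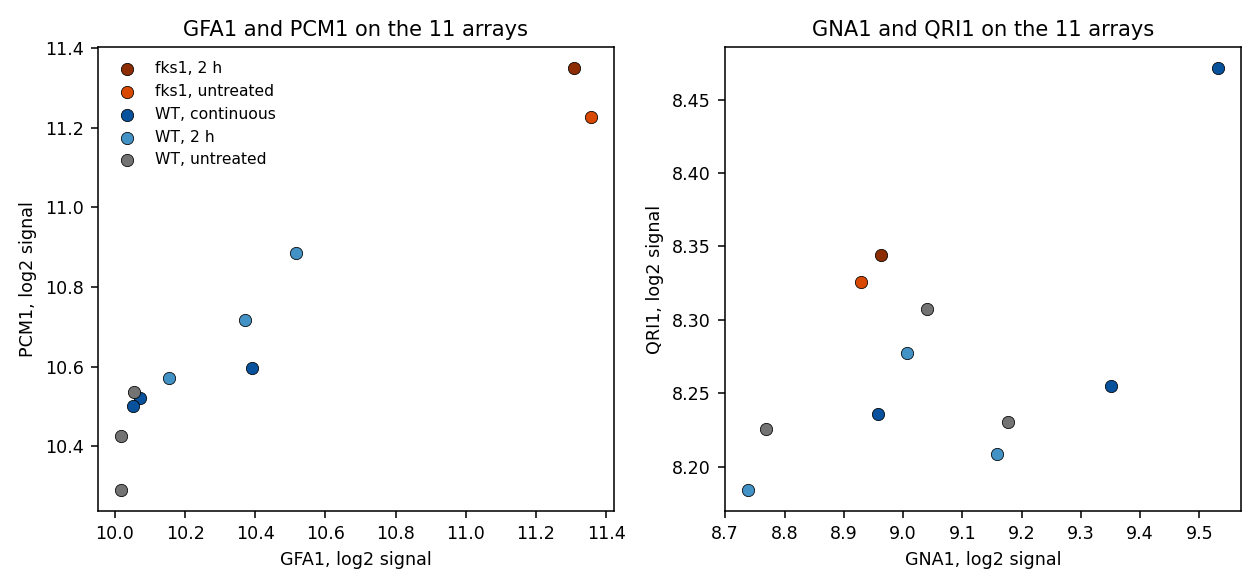
Log2 signal of PCM1 against GFA1 and of QRI1 against GNA1, with 1 point per array and colours for the 5 groups. The fks1 arrays sit at the upper right for GFA1 and PCM1 and amid the wild-type arrays for GNA1 and QRI1; r over the 9 wild-type arrays was 0.881 and 0.706.

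The balance between the enzymes was compared through the log2 ratio of a pair of members on each array, in the 2 fks1 arrays against the 6 wild-type arrays that were untreated or treated for 2 h. The ratio of GFA1 to GNA1 was higher in fks1 by 1.18, GFA1 to QRI1 by 1.05, PCM1 to GNA1 by 0.75 and PCM1 to QRI1 by 0.62. GFA1 to PCM1 was higher by 0.43, so GFA1 differed by more than PCM1 on these arrays. In these 5 pairs both fks1 arrays lay beyond all 6 wild-type arrays, which gives an exact two-sided permutation p of 0.0714 each (adjusted 0.0857 over 6 pairs), the smallest that 28 ways of choosing 2 of 8 arrays allow. QRI1 to GNA1 differed by 0.13 (exact permutation p = 0.429) and overlapped. A ratio within an array does not change when the whole array is multiplied by 1 factor. Quantile normalisation can change it, and the ratios were not computed after it.

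Among 5414 genes with a single symbol and a probe set of their own, the genes most like each member over the 11 arrays were ranked by Pearson's r of the log2 signals, as a description. For GFA1 these were YPL088W, a predicted aldo-keto reductase (r = 0.976), PCM1 (0.969) and GSC2, the alternative subunit of the wall glucan synthase (0.962). For PCM1 they were GFA1, then PRY2, a secreted sterol-binding protein (0.953), and YPL088W (0.952). So GFA1 and PCM1 stood at rank 2 and rank 1 of each other's lists. These values are carried by the difference between the strains: YPL088W read 1130.7 in untreated fks1 and 99.8 on average in untreated wild type, GSC2 2930.4 and 321.5, and PRY2 5942.2 and 2720.6. Over the 9 wild-type arrays alone r with GFA1 was 0.796 for YPL088W and 0.633 for GSC2, and r with PCM1 was 0.749 for PRY2. The genes most like GNA1 were RAD54 (r = 0.902), TRS33 (0.892) and LIF1 (0.863, at background), and those most like QRI1 were CUL3 (0.878), HUA2 (0.868) and ARG3 (0.868, 19.2 in untreated wild type and so also at background). QRI1 stood at rank 255 for GNA1 (r = 0.567) and at ranks 2130 and 1990 for GFA1 and PCM1.

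The nearest genes with a tested probe set on either side of each member in the R64 gene order did not pass in fks1 cells. Beside GFA1, SEG2 differed by -0.10 on the log2 scale in untreated cells (limma adjusted p = 0.930), and APE1, which is 2 genes away and encodes a vacuolar aminopeptidase, by -1.60 (SE 0.39, adjusted p = 0.122). Beside PCM1, SOM1, 2 genes away, differed by 0.94 (SE 0.36, limma adjusted p = 0.313), and SDD1 read near background. The neighbours of GNA1 (SMX2 and MDJ1) and of QRI1 (QRI7 and POL3) lay between -0.21 and 0.15 in untreated cells. With glucosamine SOM1 differed by 1.38 (limma adjusted p = 0.153), more than PCM1 did, and APE1 by -1.29 (adjusted p = 0.220), while SMX2, MDJ1, QRI7 and POL3 lay between -0.50 and 0.42. GFA1 also has a pair of sequence relatives, YMR084W and YMR085W, adjacent reading frames that together are paralogous to the enzyme gene. YMR084W read 14.5 and 22.2 in fks1 cells with and without glucosamine, and 6.3 to 30.8 in wild type, and YMR085W read 2.7 to 28.7 over all arrays, all close to or below background.

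No gene of the steps that feed the pathway passed as higher in fks1 cells. Of all tested probe sets, 0.418% did so untreated, 0.279% with glucosamine and 2.63% over both conditions. With so few calls over all probe sets, no call in lists of this size says little. None of the 6 genes that phosphorylate glucose or glucosamine or handle fructose-6-phosphate (HXK1, HXK2, GLK1, PGI1, PFK1 and PFK2) passed between untreated fks1 and wild type, from -0.79 for HXK1 to 0.17 for HXK2 on the log2 scale, with a median of -0.27 beside 0.12 for all tested probe sets. Of 9 genes that supply glutamine, acetyl-CoA and UTP, none passed in untreated cells, with a median of -0.06. The range ran from -0.58 (SE 0.14) for FUR1, which salvages uracil to UMP, to 1.01 (SE 0.48) for GDH3, a glutamate dehydrogenase. With glucosamine FUR1 read 2963.9 in fks1 and 6241 ± 243 in wild type (SD, n = 3), and it fell by 1.07 on the log2 scale (SE 0.14, limma adjusted p = 0.0122), lost without the variance trend (adjusted p = 0.0635). Over both conditions FUR1 was lower by a log2 of -0.83 (SE 0.10, limma adjusted p = 0.00260), and passed in all 18 alternative settings. None of 7 genes of the other sugar nucleotides passed, from UGP1 (-0.38, SE 0.24) to PGM1 (0.53, SE 0.22) in untreated cells.

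The main user of UDP-N-acetylglucosamine in the wall is chitin synthesis. In untreated fks1 cells none of its 12 genes passed singly, 9 were positive and the median was 0.47, from -0.16 for BCH2 to 1.26 for CHS1, a chitin synthase (SE 0.42, limma adjusted p = 0.251). Of all tested probe sets, 0.418% passed as higher untreated and 0.279% with glucosamine, so no call among 12 genes says little. With glucosamine none passed, 10 were positive and the median was 0.42 beside 0.08 for all tested probe sets. In untreated cells the median of all tested probe sets was 0.12. In both conditions most tested probe sets were thus positive as deposited, so the counts of positive genes are a weak mark. Over both conditions CHS3, the synthase of most wall chitin, rose by 0.70 (SE 0.13, limma adjusted p = 0.0196), and CHS7, which escorts it out of the endoplasmic reticulum, by 0.74 (SE 0.13, adjusted p = 0.0153). CHS3 read 2310.4 and 2395.5 in fks1 with and without glucosamine, against 1495 ± 219 and 1404 ± 66.0 in wild type after 2 h and untreated (SD, n = 3 each). CHS7 read 1429.2 and 1345.2, against 863 ± 91.1 and 806 ± 13.9. The signals of both genes were higher on each fks1 array than on any wild-type array, a mark whose share over all probe sets was not counted. CHS3 lost its call after scaling to a common median (adjusted p = 0.0728), which also left 7 of the 12 genes positive in untreated cells, 9 with glucosamine and 7 over both conditions.

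None of the 11 tested genes that spend the sugar on N-glycans and GPI anchors passed in any fks1 comparison. Of all tested probe sets, 0.418% passed as higher untreated, 0.279% with glucosamine and 2.63% over both conditions. Their median in untreated cells was 0.08 (0.12 for all tested probe sets), but -0.13 after scaling to a common median and -0.09 after quantile normalisation, so its direction there was not settled. With glucosamine the median was 0.34 as deposited, 0.21 and 0.23 under these scalings, and 9 of the 11 were positive each time. For all tested probe sets that median was 0.08, -0.04 and -0.0074. Over both conditions the list median was 0.21, 0.04 and 0.079. Of 6 genes that modify chitin, CRH1, which links chitin to wall glucan, passed in untreated cells (log2 1.15, SE 0.16, limma adjusted p = 0.0145). It read 5365.6 and 5679.9 in fks1 with and without glucosamine, against 3773 ± 155 and 2576 ± 256 in wild type after 2 h and untreated (SD, n = 3 each). Its untreated call was lost after scaling to a common median or without the variance trend (adjusted p at most 0.0548), and over both conditions it passed in all 18 alternatives (log2 0.83, SE 0.11, adjusted p = 0.00438). The chitinase genes CTS1 (-0.12, SE 0.16) and CTS2 (1.32, SE 0.56, near background) did not pass.

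**Figure D4:**
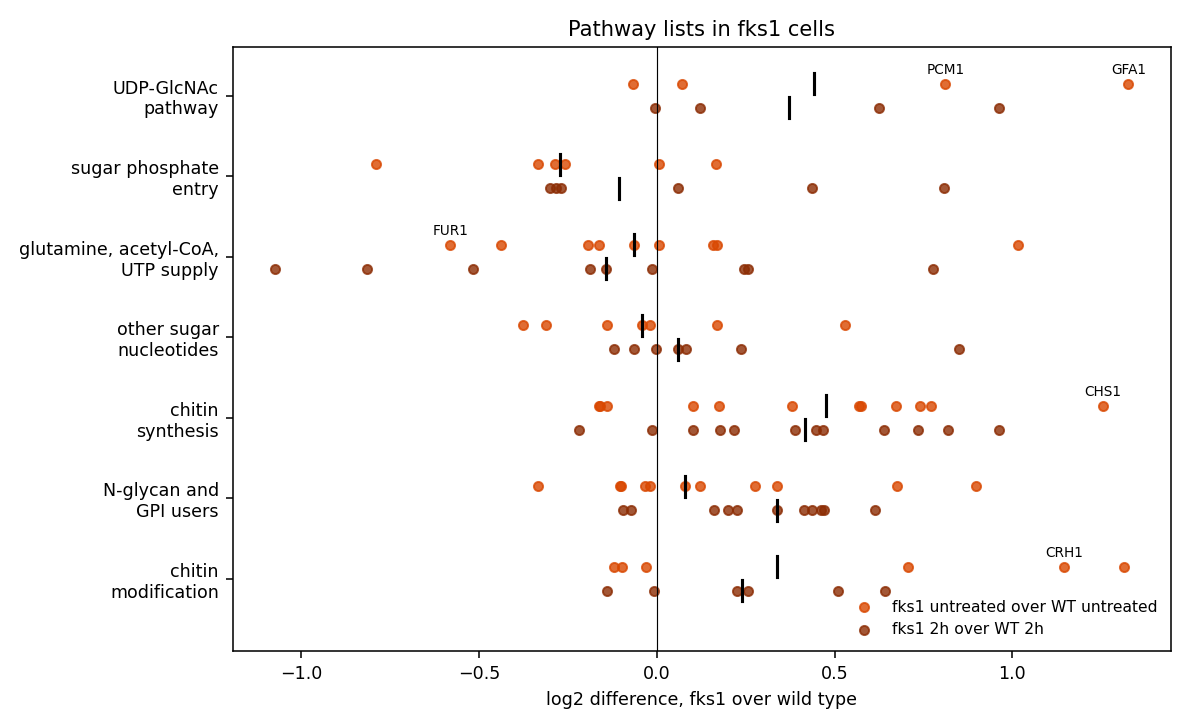
Log2 difference of fks1 over wild type for each tested gene of 7 lists, with untreated cells in the upper row of a list and 2 h of glucosamine in the lower row, and list medians as black bars. GFA1 (1.33), PCM1 (0.81), CHS1 (1.26) and CRH1 (1.15) lie far right in untreated cells, and the medians of the sugar phosphate (-0.27) and supply (-0.06) lists lie at or left of 0.

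In wild type no gene of these supply and user lists passed after 2 h of glucosamine, beside 0.0348% of all tested probe sets. FUR1 (log2 0.59, SE 0.10, limma adjusted p = 0.298) and CRH1 (0.55, SE 0.11, adjusted p = 0.402) had larger differences than GFA1, and the chitin synthesis genes had a median of 0.04. Under continuous glucosamine none passed either, beside 1.44% of all tested probe sets. GLN1, the glutamine synthetase that makes the nitrogen donor of GFA1, measured 0.77 over untreated (SE 0.18, limma adjusted p = 0.0642), and HXK1 -2.34 (SE 0.73, adjusted p = 0.156).

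GFA1 and PCM1 were set beside 7 genes of cell wall stress (SLT2, KDX1, RLM1, PRM5, SRL3, CRG1 and GSC2), the kinase, transcription factor and targets of the cell wall integrity pathway. This pathway signals wall damage to the nucleus in yeast. The list was chosen with earlier results of these data known, so its calls give no independent support. Of all tested probe sets, 0.418% passed as higher in untreated fks1 cells and 0.279% with glucosamine. In untreated fks1 cells 6 of the 7 passed as higher, all but RLM1 (1.47, SE 0.45, limma adjusted p = 0.212), with a median log2 difference of 3.19. KDX1, PRM5 and GSC2 passed in all 18 alternatives and CRG1 in 17 of 17. SRL3 passed in 14 of 18, not without any one of the 3 untreated arrays, and SLT2 (limma adjusted p = 0.0477) in 8 of 18, not without any one of the untreated arrays, of 2 h arrays 1 and 2, or of continuous array 1. With glucosamine 4 of the 7 passed, with a median of 2.29. Of these GSC2 (2.73, limma adjusted p = 0.0181) passed with each wild-type array left out in turn but not with the replicate block (adjusted p = 0.0509), and the other 3 calls were each lost without single wild-type arrays.

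The mean of the 7 genes per array, as log2 over the mean of untreated wild type, was 3.33 and 3.30 in fks1 with and without glucosamine. It was 1.66, 0.82 and 1.93 on continuous arrays 1, 2 and 3, 1.31, 1.099 and 0.61 on 2 h arrays 1, 2 and 3, and -0.0032, 0.16 and -0.15 on untreated arrays 1, 2 and 3. Their summed signal ran from 9078.7 to 9175.4 in fks1 and 1836.8 to 4263.5 in continuous wild type. It ran from 1463.6 to 2328.4 after 2 h and 1038.2 to 1276.6 in untreated wild type. These ranges describe a list chosen with earlier results of these data known. Their separation from the untreated range gives no independent support. After 2 h, array 1 was the highest and array 3 the lowest for the stress mean, GFA1 and PCM1 alike. Under continuous glucosamine array 3 had the highest stress mean and the lowest GFA1 (1061.3) and PCM1 (1447.9) of its group. The continuous group thus had stress means up to 1.93 with no member past the threshold; the part of wall stress in the fks1 values was not tested. In the continuous comparison PRM5 (1.96, SE 0.28, limma adjusted p = 0.0265) and SRL3 (2.57, SE 0.42, adjusted p = 0.0272) passed, both lost without any one untreated array or continuous array 1.

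**Figure D5:**
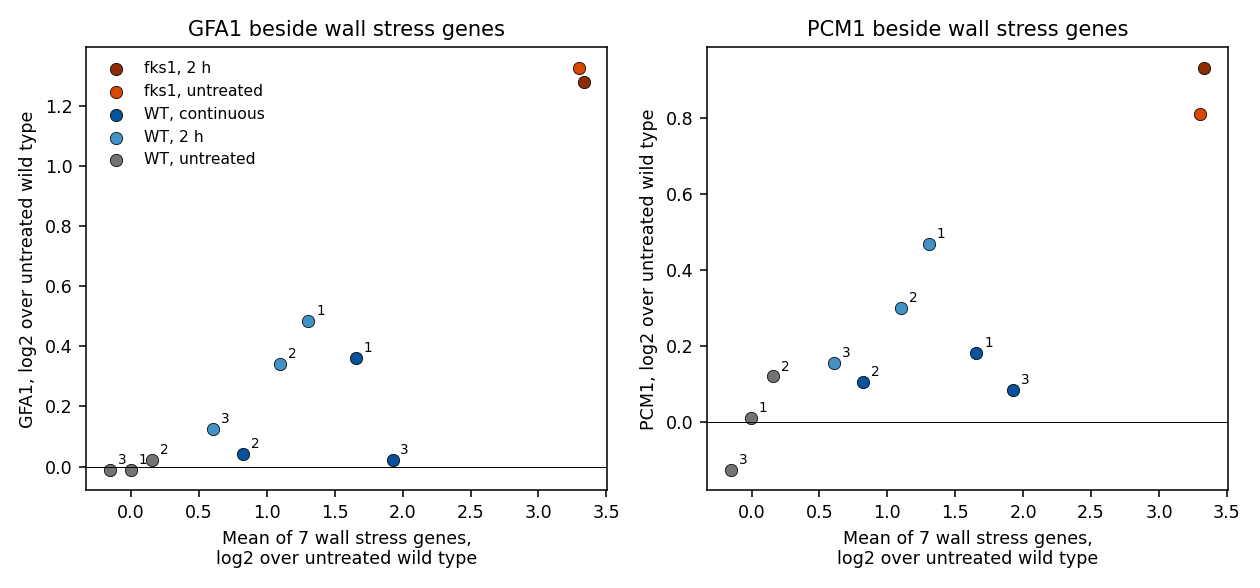
GFA1 and PCM1 on each array, as log2 over the untreated wild-type mean, against the mean of 7 wall stress genes on the same scale; digits are replicate numbers of wild-type arrays. The fks1 arrays lie at a stress mean of 3.30 and 3.33, and continuous arrays 1, 2 and 3 at 1.66, 0.82 and 1.93.

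A second set of 4 general stress genes (HSP12, HSP26, CTT1 and DDR2) followed another order. Its mean, on the same log2 scale, was 1.26 and 0.48 in fks1 with and without glucosamine, -2.15, -1.55 and -0.77 on the continuous arrays, -0.10, -0.28 and -1.02 on the 2 h arrays, and -0.16, 0.80 and -0.64 on the untreated arrays. None of the 4 passed between fks1 and wild type in untreated cells. HSP12 passed as lower under continuous glucosamine (-3.47, SE 0.66, limma adjusted p = 0.0408), where GFA1 and PCM1 had values of 0.14 and 0.12, and that call held in 8 of 21 alternatives. It was lost without any one untreated array, 2 h array 2, or continuous array 1 or 2.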

How the data were processed

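RNA was measured on 11 YG-S98 arrays. The deposited values are intensities, 1 signal per probe set and array, and the authors used GeneChip Analysis Suite to normalise them, as the labels' protocols state; its version is not given in the sources used here. Trimmed means ran from 500.4 to 500.5, no 2 arrays held identical values, and the number of arrays limits the precision. Signals were floored at 7.7, the 10th percentile, and taken to log2. Tests covered 8616 probe sets, leaving out 60 controls and those that exceeded the floor on fewer than 3 wild-type arrays. limma 3.58.1 (R 4.3.3), with a variance trend, fitted the 9 wild-type arrays for the glucosamine comparisons and all 11 arrays for those with fks1. Adjustment was over all 8616 probe sets, at 0.05. The fit was tested on simulated data. Exact permutation tests used SciPy 1.17.1. Alternatives changed the floor, the filter, the scaling, the variance trend, the block, the family probe sets or the arrays included, 1 at a time except for the block within the 6 arrays compared, which changes 2 choices and was added after the data were seen.

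Of the 9275 probe sets, 6504 had 1 symbol, 328 several and 2443 none; symbols were updated through the RefSeq table of R64. Where a gene had several probe sets, as FKS1 (8) and GSC2 (7) did, the brightest stood for it. The genes named are the 4 members, list genes that passed, the highest and lowest of a list, and the 3 genes most like each member; marker, stress and neighbouring genes were named to describe the arrays and the members' surroundings. Members and lists were chosen with earlier results of these data known. Same-numbered untreated and 2 h arrays deviated together (r = 0.356, 0.570 and 0.517), so the fit with the number as a block was also made; it is given for GFA1 and PCM1, and it changed no member's call. Continuous arrays did not deviate with their numbers (r from -0.236 to -0.00619).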

Additional observations from a re-analysis of the deposited data

How the results depend on the processing

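Of 612 values of the 4 members under alternatives, 581 kept their direction and their side of the threshold; the cause of the others was not tested. With the median of each array set equal, the fks1 differences were 1.11 for GFA1 (untreated, not called), 0.55 for PCM1 (both conditions, not called), -0.14, -0.0054 and -0.073 for QRI1 (untreated, 2 h, both) and 0.10 for GFA1 within fks1, and the wild-type 2 h differences were 0.028 for GNA1 and 0.025 for QRI1, with -0.020 for QRI1 in continuous against 2 h. After quantile normalisation they were 0.042 for GNA1 and 0.063 for QRI1 (2 h), -0.0068 for QRI1 (continuous against 2 h), -0.016 and -0.0015 for QRI1 (fks1 untreated, both), and PCM1 (0.83) and GFA1 (0.98) passed in untreated and 2 h fks1, as they did without the filter (0.81 and 0.96). Without the variance trend GFA1 kept 1.33 and lost its untreated call. With single wild-type arrays left out (no fks1 array was, since each is alone in its group), the differences of fks1 untreated, fks1 2 h and both ran from 1.32 to 1.34, 0.87 to 1.05 and 1.097 to 1.19 for GFA1, 0.75 to 0.87, 0.55 to 0.71 and 0.68 to 0.76 for PCM1, and -0.18 to 0.024, -0.12 to 0.091 and -0.093 to 0.012 for GNA1; GNA1 ran from -0.14 to 0.087 for 2 h in wild type and from -0.052 to 0.18 for the difference of responses, and QRI1 from -0.0089 to 0.11 for continuous over untreated. The number of probe sets past the threshold moved more. For 2 h in wild type it was 3, against 1 with the 5th percentile floor, an offset, the control filter or quantile normalisation, 0 with the replicate block in the fit of 9 arrays or with only the groups compared, 17 with the replicate block in 6 arrays, and 0 to 1 without single arrays. For continuous over untreated it was 124, against 16 with no filter, 44 with equal medians, 11 with no trend, 50 and 0 with the replicate block in 9 and 6 arrays, 16 without family probe sets, and 2 to 186 without single arrays, the lowest without untreated array 2. For continuous against 2 h it was 5, against 0 with the 6-array replicate block and 2 to 9 without single arrays. For untreated fks1 it was 51, against 159 with no filter, 29 with the block and 22 to 51 without single arrays; for 2 h fks1 37, against 63 with an offset, 152 with no filter, 19 with the block, 24 without family probe sets and 18 to 38 without single arrays. Within fks1 and for the difference of responses it was 1 each, against 73 and 61 with no filter, 0 with an offset, equal medians, quantile normalisation, no trend or the block, and 0 to 1 and 0 to 0 without single arrays. For both conditions it was 314, against 478 with no filter and 190 to 321 without single arrays. Calls in this contrast split 227 higher and 87 lower, against 154 and 217 with equal medians. The replicate block changed no member's call.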
